A study of Mus musculus with 6 samples.

Results

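Voltage-gated ion channel genes are described here by the AGO2 target peaks that lay in them, in mouse cortex taken on postnatal day 14. The members were all protein-coding mouse genes whose symbols begin with Scn and a number, Cacn, Kcn, or Hcn and a number, 138 of the 21887 nuclear protein-coding genes of the gene table used. The symbols reach further than the name: 48 of the 138 belong to families whose pores voltage does not open or that are not channel subunits in the strict sense (Kcnj, Kcnk, Kcnn, Kcnt, Cacng, Kcnip and Kcnrg). A peak belonged to a gene when its midpoint lay in the gene's span on mm10. Of the 138 genes, 17 held a peak, and together they held 28 of the 2197 peaks of the series.

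The series comprised 6 libraries in 3 groups of 2, all of genotype Spy3-Ago2: miRNA held by AGO2, target RNA held by AGO2, and whole lysate as input. In these mice VGLUT2-Cre, which is active in cells that use the vesicular glutamate transporter gene Slc17a6, switched on a conditional Spy3-AGO2 allele. AGO2 is the protein that carries a microRNA (miRNA) to its target RNA, and the Spy3 tag lets it be captured on a SpyCatcher3 resin. The labels give the cells as pyramidal neurons, which are excitatory. None of the groups lacked the tag, and the labels do not say whether animals were pooled.

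The target side was 1 list of peaks for the series, without values for the single target or input libraries, so that no peak has a replicate check and no test between groups was possible. Whether the peaks were called against the input is not given in the sources used here, and a peak therefore does not by itself show binding. The miRNA libraries held 66854 and 75658 counts. As a check of the cell type, 4 of 6 glutamatergic markers held a peak (among them Slc17a7 with 5 and Camk2a with 4, but Slc17a6 had 0), against 1 of 6 GABAergic, 0 of 5 astrocyte, 2 of 5 oligodendrocyte, 0 of 4 microglial and 0 of 3 endothelial markers. The oligodendrocyte markers included the myelin gene Mbp, with 2 peaks. Expression was not measured here, so the part of expression in any share below was not tested.

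Voltage-gated channels open and close with the membrane potential and set how a neuron fires. Sodium channels carry the upstroke of the action potential, potassium channels end it and set the resting potential, calcium channels couple it to transmitter release, and HCN channels pass a current that opens on hyperpolarisation. Most consist of a large pore-forming subunit and smaller auxiliary subunits that steer its traffic and gating. A miRNA bound to AGO2 pairs through its seed with a transcript and lowers its translation or stability, and most of the sites known for this lie near the 3′ end of transcripts.

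Channel genes carried peaks in 17 of 138 cases, or 12.3% (exact 95% interval 7.34 to 19.0), beside 4.30% of all nuclear protein-coding genes (941 genes). At least 2 peaks were found in 7 of the 138 (5.07%, 2.06 to 10.2), beside a background of 1.36%. A peak in the last 10% of the span was found in 13 of them (9.42%, 5.11 to 15.6), beside 2.85%. These shares are descriptions, since the gene set was chosen with earlier results of the same data in view, and neither expression nor gene length was matched. The peaks spread thinly over the subfamilies: 14 of 28 subfamilies held a member with a peak, and 11 of those 14 held exactly 1 such gene.

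**Figure D1:**
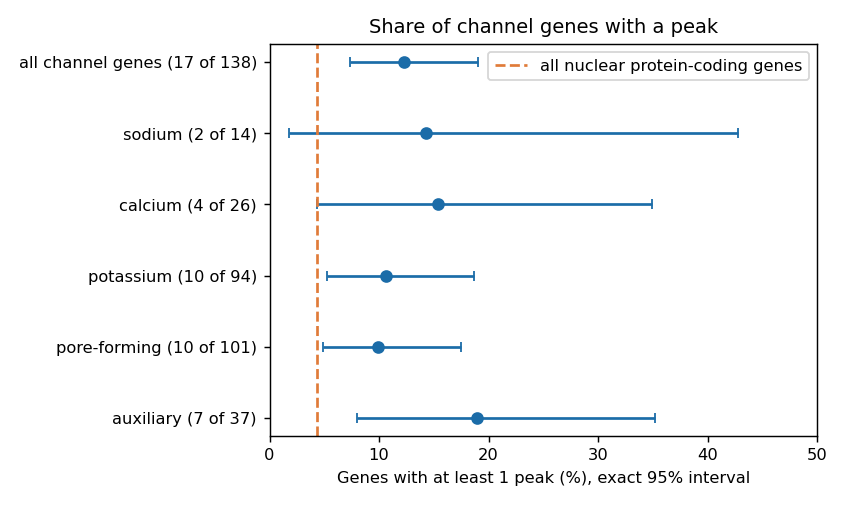
Share of channel genes with at least 1 peak (points, in percent) with exact 95% intervals, for all members, for the sodium, calcium and potassium classes and for pore-forming and auxiliary subunits; the dashed line is the share of all nuclear protein-coding genes, 4.30%. Every point lies above the line, while the interval of the sodium class, with 2 of 14 genes, reaches below it.

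By class of channel the shares were 2 of 14 sodium channel genes (14.3%, 1.78 to 42.8), 4 of 26 calcium channel genes (15.4%, 4.36 to 34.9) and 10 of 94 potassium channel genes (10.6%, 5.22 to 18.7). The intervals overlap widely, and no order among these classes can be read from them. Auxiliary subunits had peaks in 7 of 37 genes (18.9%, 7.96 to 35.2) and pore-forming subunits in 10 of 101 (9.90%, 4.85 to 17.5), again with overlapping intervals. In the families gated by voltage, 13 of 90 genes had a peak (14.4%, 7.92 to 23.4), and in the other families 4 of 48 (8.33%).

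**Figure D2:**
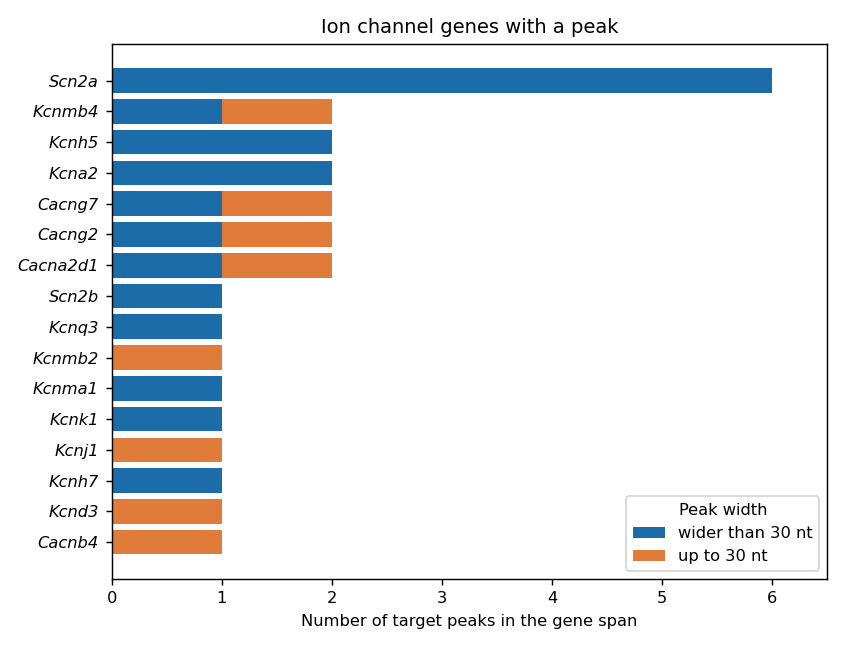
Number of target peaks in the span of each sodium, calcium or potassium channel gene with a peak, split by peak width into peaks wider than 30 nt and peaks of up to 30 nt. Scn2a stands apart with 6 wider peaks; 6 genes have 2 peaks and 9 have 1, and 4 genes (Cacnb4, Kcnd3, Kcnj1 and Kcnmb2) have none but a narrow peak.

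Among the sodium channels, Scn2a held 6 of the 7 peaks. It encodes the pore of Nav1.2, a sodium channel of the axon initial segment of excitatory neurons, and spans 147 kb at chr2:65620764-65767447 on the plus strand. Only 33 protein-coding genes of the whole list held more than 6 peaks. Its peaks were all on the strand of the gene and 50 to 77 nt wide. The first lay far inside the span, at chr2:65671653-65671710 (58 nt), 34.7% of the way along and 95.7 kb before the end.

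The other 5 Scn2a peaks formed a cluster of 865 nt, with the edge of each peak nearest to the end of the span 0.956 to 1.76 kb before it. They lay at chr2:65765627-65765685 (59 nt), chr2:65765752-65765825 (74 nt), chr2:65765966-65766015 (50 nt), chr2:65766322-65766391 (70 nt) and chr2:65766415-65766491 (77 nt). Together they covered 330 nt, or 38.2% of that stretch, with gaps of 66, 140, 306 and 23 nt between neighbours. Of the 12 other channel genes with a peak in the last 10% of the span, 8 had one nearer to the end than any of these.

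The neighbours of Scn2a carried no peak. Scn3a, Scn1a, Scn9a and Scn7a lie with it in a stretch of 1328 kb on chromosome 2, and the 6 peaks in that stretch were those of Scn2a. Scn1a and Scn3a encode Nav1.1 and Nav1.3, the first prominent in inhibitory neurons and the second in the developing brain, and Scn9a and Scn7a are known chiefly outside the cortex. Scn8a, which encodes Nav1.6 of the mature initial segment (chr15:100869863-101045938), also had 0 peaks, as had Scn4a, Scn10a and Scn11a. The alpha subunits thus had a peak in 1 of 10 genes (exact interval 0.253 to 44.5%).

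Of the 4 beta subunits, which bind the pore and modify its gating and adhesion, Scn2b had 1 peak and Scn3b and Scn4b had 0. The Scn2b peak (chr9:45129708-45129747, 40 nt) lay 323 nt before the end of a short gene of 12.2 kb (chr9:45117876-45130070). Its midpoint also lay in the span of the lncRNA gene Gm10684, so it cannot be credited to Scn2b alone.

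In the calcium channels the peaks fell on auxiliary subunits. None of the 10 Cacna1 genes, which encode the pores of the L-, P/Q-, N-, R- and T-type channels, held a peak (0 of 10, exact upper limit 30.8%), although their median span was 135 kb and Cacna1c alone spans 610.1 kb. The upper limit for Cacna1 lies above the 4.30% of all nuclear protein-coding genes and the 10.4% of those of at least 50 kb. The 16 auxiliary genes (Cacna2d, Cacnb and Cacng) held 7 peaks in 4 genes. Of the 7 peaks, 4 lay in Cacng genes, a family counted above among those not gated by voltage or not strictly channel subunits.

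Cacna2d1 encodes the α2δ-1 subunit, which carries calcium channels to the cell surface and is the binding site of gabapentin (chr5:15934264-16374511, plus strand, 440.2 kb). It had 2 peaks. A peak of 34 nt at chr5:16374390-16374423 ended 88 nt before the end of the span, and a peak of 24 nt at chr5:16256208-16256231 lay 118 kb before it, at 73.1% of the span. Cacna2d2, Cacna2d3 and Cacna2d4 had 0, the second with a span of 818 kb.

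Cacnb4 encodes the β4 subunit, a cytoplasmic partner of the calcium channel pore (chr2:52428320-52676609, minus strand). Its single peak, chr2:52615918-52615943, was 26 nt wide, lay at 24.4% of the span and was on the plus strand, opposite to the gene. Counting peaks on the strand of the gene therefore leaves Cacnb4 with 0 peaks, like Cacnb1, Cacnb2 and Cacnb3.

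The Cacng genes encode the gamma subunits, of which several are known as TARPs, partners that carry AMPA receptors to the synapse. Of the 8, Cacng2 (stargazin, chr15:77991919-78120220, minus strand) and Cacng7 (chr7:3332027-3368221, plus strand) had 2 peaks each. In Cacng2 a peak of 63 nt at chr15:77993773-77993835 lay 1.85 kb before the end, and a peak of 26 nt at chr15:78047015-78047040 lay 55.1 kb before it, inside the span of the lncRNA gene Gm46520 as well. In Cacng7 a peak of 35 nt at chr7:3368178-3368212 ended 9 nt before the end of the span, and a peak of 25 nt at chr7:3342657-3342681 lay at 29.4% of it. Cacng8 and Cacng6, the next gamma subunit genes on the same chromosome, had 0, as had Cacng1, Cacng3, Cacng4 and Cacng5.

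Potassium channel genes, the largest class, held 13 peaks in 10 of 94 genes, never more than 2 in a gene. Of the Shaker-type Kcna genes, 1 of 8 had peaks. Kcna2 encodes Kv1.2, a channel of axons that limits repetitive firing (chr3:107090883-107115005, plus strand). Both its peaks lay at the very end, at chr3:107114799-107114840 (42 nt) and chr3:107114896-107114982 (87 nt), ending 165 and 23 nt before the end of the span and separated by 55 nt. Kcna3 and Kcna10, on either side of it on the same chromosome, had 0, as had Kcna1, Kcna4, Kcna5, Kcna6 and Kcna7.

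The ether-a-go-go family had peaks in 2 of 8 genes, both on the strand of the gene. Kcnh5 (Kv10.2, chr12:74897217-75177332, minus strand) held the widest peak of all members, 136 nt at chr12:74897242-74897377, ending 25 nt before the end of the span. A second peak, chr12:74897421-74897500 (80 nt), lay 43 nt upstream, so that 216 nt at the end of Kcnh5 were covered. Kcnh7 (Kv11.3, chr2:62693410-63184287, minus strand) had 1 peak of 55 nt at chr2:62696130-62696184, 2.72 kb before its end.

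Large-conductance BK channels open with both voltage and calcium, and 3 of their 5 genes had a peak, beside 12.3% of all channel genes. The group is small: for the Kcnmb genes alone, 2 of 4, the exact interval was 6.76 to 93.2%. Kcnmb2 is among the 3 only through a narrow peak on the opposite strand. Kcnma1, the pore (chr14:23292288-24005110, minus strand, 713 kb), had 1 peak of 71 nt at chr14:23292320-23292390, 32 nt before the end. Kcnmb4, the auxiliary subunit best known from brain (chr10:116417861-116473859, minus strand), had a peak of 73 nt at chr10:116417871-116417943, which ended 10 nt before the end, and a peak of 24 nt at chr10:116461436-116461459, at 22.2% of the span. Kcnmb2 (chr3:31901861-32200180, plus strand) had 1 peak, 23 nt at chr3:32148419-32148441, which was on the opposite strand and the narrowest of all members. Kcnmb1, of smooth muscle, and Kcnmb3 had 0.

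The remaining potassium channel peaks were single. Kcnq3, a subunit of the M-current channel that restrains repetitive firing (chr15:65986374-66286636), had a peak of 89 nt at chr15:65995090-65995178, 8.72 kb before the end as read along the strand of the peak. Kcnk1, the leak channel TWIK-1 (chr8:125993655-126030685, plus strand), had a peak of 52 nt at chr8:126030230-126030281, 404 nt before the end. Kcnd3, the A-type channel Kv4.3 (chr3:105451890-105674002, plus strand), had a peak of 25 nt at chr3:105552678-105552702, at 45.4% of the span. Kcnd1 and Kcnd2 had 0.

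Kcnj1 encodes ROMK, a channel of the kidney, and stands in the list of 14 channel genes known chiefly from other tissues. It was the 1 gene of that list with a peak (7.14%, 0.181 to 33.9) and also the 1 of the 15 inward rectifier genes with one (6.67%, 0.169 to 31.9). The peak, chr9:32383970-32383996, was 27 nt wide, lay at 43.2% of the span (chr9:32372418-32399197) and fell in the lncRNA gene Gm31755 too. Kcnj10, the inward rectifier of astrocytes, and Kcnj8, that of mural cells, had 0 peaks.

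Whole families of potassium channels that shape firing in cortex carried no peak. Among them were the 4 Kcnc genes of fast-spiking cells, the 4 calcium-activated Kcnn genes, the sodium-activated Kcnt1 and Kcnt2, the 4 Kcnip genes that bind Kv4 channels and the 3 Kcnab genes that bind Kv1 channels. Kcnip4, at 1136 kb the longest gene of all members, was among them. No peak fell in Kcne, Kcnf, Kcng, Kcnrg, Kcns, Kcnu or Kcnv genes either. These families are small: 0 of 4 genes allows a share of up to 60.2%, and 0 of 2 up to 84.2%. Of all nuclear protein-coding genes only 4.30% had a peak, so the absence of peaks is not a result about these families. In all, 121 members had 0 peaks. Extending every span by 5 kb added 1 gene, Cacna1f, through a peak of 24 nt that lay 3415 nt after its end and in the span of the synaptic vesicle gene Syp.

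**Figure D3:**
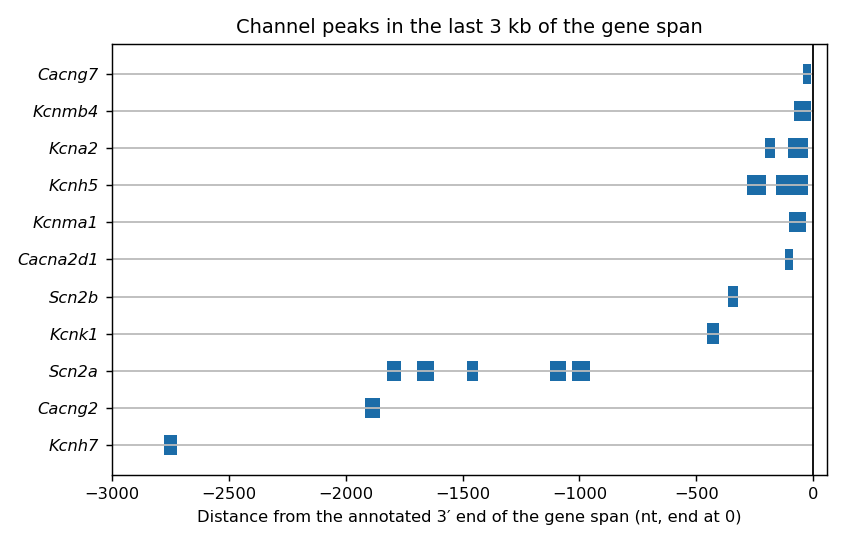
Channel peaks (bars, drawn to scale) in the last 3 kb of the gene span, with the annotated 3′ end at 0 on the right and distance in nt on the horizontal axis, 1 line for each gene. Cacng7, Kcnmb4, Kcna2, Kcnh5, Kcnma1 and Cacna2d1 have a peak within 88 nt of the end, while the 5 Scn2a bars have their right edges 956 to 1762 nt before it.

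Position followed the background. Of the 28 channel peaks, 19 (67.9%, 47.6 to 84.1) fell by their midpoints in the last 10% of the span, beside 66.7% of 1723 pairs of a peak and a protein-coding gene. A share this near the background is not a result about channel genes. The first 10% held 0 of the 28. Measured in bases rather than percent, all 19 terminal peaks lay within 8.72 kb of the end, and 7 of the 28 ended within 200 nt of it (25.0%, 10.7 to 44.9, beside 19.0% of all pairs). Those 7 came from 6 genes, Kcna2 with both its peaks and Cacna2d1, Cacng7, Kcnh5, Kcnma1 and Kcnmb4 with 1 each. Counted by gene, the median position lay in the last 10% in 9 of 17 genes (52.9%).

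Width separated the terminal from the internal channel peaks. Channel peaks had a median width of 51 nt (exact 95% interval 34 to 70) and ranged from 23 to 136 nt, against 59 nt for all pairs. The 19 peaks in the last 10% had a median width of 63 nt and none was narrower than 34 nt. The 9 others had a median of 25 nt, and 8 of them were 23 to 27 nt wide. Over all pairs the medians lay closer together, at 64 nt in the last 10% and 44 nt outside it. No channel peak had a width between 27 and 34 nt. The exception was the internal Scn2a peak of 58 nt, the 1 wide channel peak outside the last 10%.

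**Figure D4:**
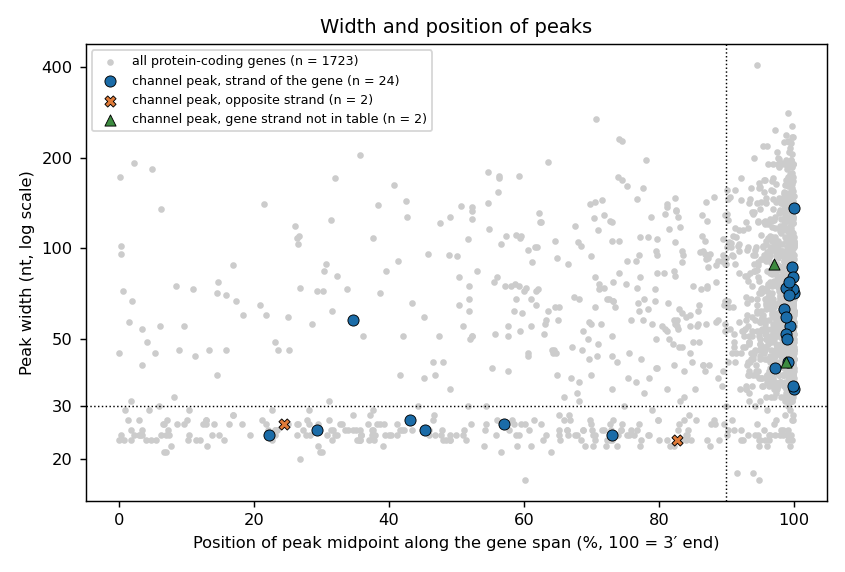
Width of each peak (nt, log scale) against the position of its midpoint along the gene span (percent, 100 at the 3′ end), for all pairs of a peak and a protein-coding gene (grey) and for the 28 channel peaks, with symbols for their strand; dotted lines mark 30 nt and the last 10% of the span. The 8 channel peaks of up to 30 nt are spread between 22.2% and 82.7% of the span, and 19 of the 20 wider ones sit in the last 10%.

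Split at 30 nt, 8 of 28 channel peaks were narrow (28.6%, 13.2 to 48.7), beside 16.6% of all pairs. All 8 lay outside the last 10% (100%, 63.1 to 100), as did 84.6% of the 286 narrow pairs in all protein-coding genes. Of the 20 wider channel peaks, 19 lay in the last 10% (exact interval 75.1 to 99.9%), beside 76.9% of the 1437 wider pairs. Over the whole list, too, narrow pairs lay mostly outside the last 10% and wider pairs mostly in it. The division was less sharp there, as the 574 pairs outside the last 10% had a median width of 44 nt. The interval of the narrow channel peaks includes the background. In 4 of the 17 genes, Cacna2d1, Cacng2, Cacng7 and Kcnmb4, a narrow internal and a wider terminal peak occurred together. In Cacnb4, Kcnd3, Kcnj1 and Kcnmb2 the narrow peak was the only one, so 13 of the 138 channel genes had a wider peak.

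Most channel peaks lay on the strand of their gene. The strand was known for 101 of 138 members and for 26 of the 28 peaks; it was not in the table for Kcnq3, for example. Of the 26, 2 were on the opposite strand (7.69%, 0.946 to 25.1), beside 13.1% over all genes with a strand. Both were narrow, 2 of 8 (25.0%, 3.19 to 65.1), beside 51.6% of 225 narrow pairs in all genes. None of the 18 wider channel peaks was on the opposite strand (exact upper limit 18.5%), beside 4.50% of 1001 wider pairs. With peaks on the strand of the gene alone, 13 of 101 channel genes held one (12.9%, 7.04 to 21.0), beside 3.32% of all genes with a strand.

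**Figure D5:**
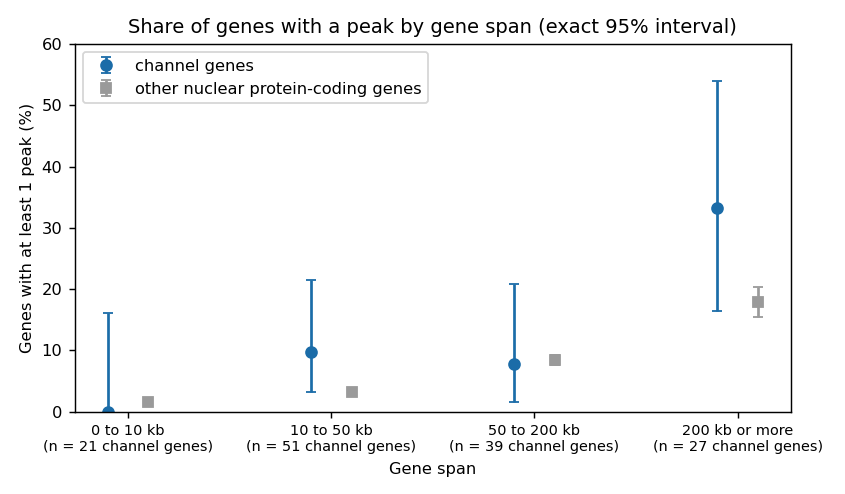
Share of genes with at least 1 peak (percent, with exact 95% intervals) in 4 classes of gene span, for channel genes (circles) and all other nuclear protein-coding genes (squares). The share in channel genes is 33.3% at 200 kb or more, against 17.9% of other genes, and 7.69% against 8.40% between 50 and 200 kb.

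Gene length varied with the presence of a peak. Channel genes are long, with a median span of 42.6 kb against 17.2 kb for all nuclear protein-coding genes, and the 17 with a peak had a median of 222 kb against 40.2 kb for the 121 without. Among channel genes under 10 kb, 0 of 21 had a peak (exact upper limit 16.1%, other genes 1.63%). Between 10 and 50 kb the share was 5 of 51 (9.80%, 3.26 to 21.4, other genes 3.28%), and between 50 and 200 kb it was 3 of 39 (7.69%, 1.62 to 20.9, other genes 8.40%). At 200 kb or more it was 9 of 27 (33.3%, 16.5 to 54.0, other genes 17.9%). Over genes of at least 50 kb, 12 of 66 channel genes held a peak (18.2%, 9.76 to 29.6), beside 10.4% of all such genes. That interval includes the background of the long genes, and the part of span in the shares was not tested.

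Other membrane protein families gave a scale for these shares. Peaks lay in 8 of 18 ionotropic glutamate receptor genes (44.4%, 21.5 to 69.2), 3 of 16 GABA-A receptor genes (18.8%, 4.05 to 45.6) and 11 of 17 sodium and calcium pump genes (64.7%, 38.3 to 85.8). The intervals of the glutamate receptor and pump genes lie above that of all channel genes, but span was not matched. The median span was 298 kb in the glutamate receptor genes, 91.1 kb in the GABA-A receptor genes and 31.9 kb in the pump genes, against 42.6 kb in the channel genes. The interval of channel genes of 200 kb or more (33.3%, 16.5 to 54.0) overlaps that of the glutamate receptor genes. The median peak width in the glutamate receptor, GABA-A receptor and pump genes was 64, 66 and 62 nt. No test was made between the families.

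Proteins that anchor or modify the channels were described by a list of 28 genes from general knowledge. Peaks lay in 9 of them (32.1%, 15.9 to 52.4), beside 4.30% of all nuclear protein-coding genes and 10.4% of those of at least 50 kb. Ank2, an ankyrin that ties membrane proteins to the spectrin skeleton, held 7, of which 4 lay in the last 10% of the span. Dlg2, a scaffold that gathers Kv1 channels, held 3, all in the last 10%, and the postsynaptic scaffold Dlg4 (PSD-95) held 2, neither of them there. Ank3, which assembles the axon initial segment where Scn2a sits, and Adam22, a partner of Kv1 complexes, held 1 each, in the last 10%. Nalcn, the sodium leak channel, held 1 narrow peak. Among those with 0 were Dpp6 and Dpp10, auxiliary to Kv4 channels, and Fgf12, Fgf13 and Fgf14, which bind sodium channels.

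Some miRNAs are known from other work as regulators of channel genes, and 7 such pairs from general knowledge were set beside the AGO2-bound miRNA counts. The mature sequences below, credited to RefSeq on GRCm38.p6, show the seeds, bases 2 to 8 in capitals, through which each would pair with its channel transcript; miR-935 is added because its locus lies in a channel gene.
miR-9-5p: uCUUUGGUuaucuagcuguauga
miR-137-3p: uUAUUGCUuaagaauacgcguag
miR-103-3p: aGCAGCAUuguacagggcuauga
miR-324-5p: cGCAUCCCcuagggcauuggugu
miR-17-5p: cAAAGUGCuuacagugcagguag
miR-129-5p: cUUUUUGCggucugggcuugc
miR-935: cCCAGUUAccgcuuccgcuaccgc

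Each of these seeds differs from the others, so none of these miRNAs shares a seed family with another. miR-9-5p, linked to Kcnma1, had 4424 and 4714 counts in replicates 1 and 2, or 6.42% ± 0.273 of the counts (SD, n = 2), and ranked 3 among all miRNAs. Kcnma1 was the 1 channel gene of the pairs with a peak. Of all channel genes 12.3% had a peak, and of those of 200 kb or more, to which Kcnma1 with 713 kb belongs, 33.3%. With so few pairs, a link between the level of a miRNA and peaks in its channel gene was not tested. Whether that peak holds a match to the miR-9-5p seed was not tested, because the sequence of the peak was not used here.

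The other miRNAs of the pairs were present at lower levels, and their channel genes had 0 peaks. miR-30b-5p, linked to Scn9a, had 692 and 805 counts (1.05% ± 0.0204, SD, n = 2). miR-137-3p, linked to Cacna1c, had 465 and 520 counts (0.691% ± 0.00583), and miR-103-3p, linked to the same gene, had 156 and 222 (0.263% ± 0.0425). For Kcnd2, miR-324-5p had 79 and 80 counts (0.112% ± 0.00879) and miR-17-5p had 55 and 60 (0.0808% ± 0.0021). For Kcna1, miR-129-5p had 42 and 67 counts (0.0757% ± 0.0182). All 7 were thus counted in both libraries, far above the limit that a count of 0 allows, 0.00449% and 0.00397% of the counts. Of the 1978 miRNAs listed, 471 were detected in replicate 1 and a slightly larger number in replicate 2, in each case a minority of the list. The overlap between the replicates was not counted. The 7 were chosen from general knowledge, and their detection was not tested against that of the whole list.

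In the miRNA table, 1 mature miRNA lay inside a channel gene. miR-935 lies at chr7:3415120-3415143, on the same strand as Cacng8 (chr7:3394042-3416266), and had 7 and 14 counts (0.0145% ± 0.00568, SD, n = 2; rank 256). Cacng8 itself had 0 peaks.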

How the data were processed

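The authors deposited 1 list of target peaks with position, name, strand and a score that is 0 for all 2197 peaks. They also deposited, for each miRNA library, whole-number counts per mature miRNA, not normalized and, per the name given to them, without removal of duplicates. Per the submitters' processing notes, which give no roles or order, the build was mm10 and the tools included the aligners STAR 2.5.2a and Bowtie2 2.4.2, the trimmer cutadapt 2.10 and UMI-tools, DESeq2 1.36.0 and deepTools 3.1.3. The peak caller is not given in the sources used here.

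Gene spans came from a RefSeq table on GRCm38.p6, whose coordinates mm10 shares, and strands from a table of promoters on the same build, which held 101 of the 138 genes. Spans include introns, and exons were not used here. A host gene was not given the peaks of small RNA genes inside it; 0 channel peaks lay in such a gene. Position was read along the gene's strand, or along that of the peak where the table held none. Coordinates count from 1.

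Intervals are exact (Clopper-Pearson, SciPy 1.17.1) and cover counting error only, and treat genes and peaks as independent. Assignment was tested on simulated data. Members and lists were chosen with earlier results of these data known, and the split at 30 nt, the 200 nt limit and the comparison families after the peaks were seen. The rule names every member with a peak, and of the partner genes up to 6 by number of peaks; some genes it covers are not reported here. The search for seed sites in peaks was not run, as no genome was used here. No value column was left unused.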

Additional observations from a re-analysis of the deposited data

How the results depend on the processing

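The share of channel genes with a peak stayed within its interval when any overlap counted, when the whole peak had to lie in the span, with peaks in 1 gene span (15 of 138), on the strand of the gene (13 of 101), of at least 40 nt (11 of 138) or in the last 10% of the span, with spans extended by 5 kb (18 of 138), and for the pore-forming or the voltage-gated families alone. That interval, 7.34 to 19.0%, is wide, and peaks of at least 40 nt gave 7.97%, near its lower end. Requiring at least 2 peaks gave 5.07%, below it. Peaks of at least 40 nt numbered 18 in place of 28, and 6 of the 17 genes then had none. The background share was 10.4% among genes of at least 50 kb and 3.32% for peaks on the strand of the gene. It was not recomputed for the settings of overlap, width, extended spans or peaks in 1 gene span. Without Scn2a, 22 peaks remained, 63.6% of them in the last 10%, with a median width of 41 nt. With narrow set at up to 40 nt, 8 of 11 narrow peaks lay outside the last 10%. The summed share of the 7 miRNAs was 8.7% ± 0.209 (SD, n = 2), 8.55% to 8.84% in the single libraries and 10.02% with the most abundant miRNA left out of the total. Alternatives for narrow peaks, for the 200 nt limit and for peaks in small RNA genes were chosen after seeing the data. No paired analysis was possible because the peak list carries no values for single libraries and no comparison between groups was made. With 1 peak list, what is limited is the number of genes: a subfamily of 4 with 0 peaks allows a share of up to 60.2%.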

Other observations

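The names of the deposited peaks carry numbers that run in order of position within each chromosome and strand and reach 14469, while the list holds 2197 peaks, so 12272 numbers do not appear. What those numbers stood for is not given in the sources used here. Between the internal and the first terminal peak of Scn2a, 16 numbers are skipped, and 18 over all its peaks. By their order those numbers would fall on the plus strand of the Scn2a span. Cacna2d1 has 8 skipped numbers between its peaks, Cacng7 has 3 and Cacng2 has 2. Between the peaks of Kcna2, Kcnh5 and Kcnmb4 there are 0.

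Over all protein-coding genes with a strand, narrow peaks of up to 30 nt were opposite to the gene in 51.6% of 225 pairs (exact 95% interval 44.8 to 58.2), and wider ones in 4.50% of 1001 (3.30 to 5.97). The channel genes Cacnb4 and Kcnmb2 owe their place among the genes with a peak to such a narrow peak on the opposite strand.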
